A study of Mus musculus with 16 samples.

Results

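The disaccharidases of the small intestinal brush border are the enzymes that split dietary sugars at the surface of the enterocyte, and their 4 mouse genes, Lct, Sis, Treh and Mgam, are described here out of the 24421 genes counted. The members were taken by their gene symbols, and all 4 passed the filter on low counts that left 13429 genes for testing. Epithelium released with EDTA from the jejunum and the ileum of wild-type C57BL6/J mice was sequenced as bulk RNA at P6 (postnatal day 6) and at P36. The 4 groups, P6 jejunum, P6 ileum, P36 jejunum and P36 ileum, held 4 libraries each, and each of the 8 mice (4 per age, with 2 females and 2 males) gave both regions. None of the mice carried a transgene or received a treatment according to the labels, so that age and region were the compared factors.

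Lct encodes lactase-phlorizin hydrolase, which splits the lactose of milk into glucose and galactose. Sis encodes sucrase-isomaltase, which splits sucrose and the branch points of starch, and Mgam encodes the related maltase-glucoamylase, which frees glucose from starch fragments. Treh encodes trehalase, which splits the trehalose of fungi and insects into glucose. In rodents, lactase is the enzyme of the suckling period and sucrase and trehalase are known to appear around weaning, so that P6 and P36 fall on either side of the change from milk to solid food. The monosaccharides released by these enzymes are carried into the enterocyte by the transporters Slc5a1 (SGLT1, for glucose and galactose) and Slc2a5 (GLUT5, for fructose), and Slc2a2 (GLUT2) passes sugars on to the blood.

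In the mm10 annotation of the files, Lct lay on chromosome 1 (128284764 to 128328318, minus strand), Sis on chromosome 3 (72888560 to 72966866, minus strand), Treh on chromosome 9 (44673233 to 44686305, plus strand) and Mgam on chromosome 6 (40628831 to 40769123, plus strand). Their exons covered 6166, 5887, 2048 and 6488 bases, and none overlapped an exon of another gene of that annotation on either strand. The promoters are shown because the 4 genes moved differently between the same groups. Each sequence is the 250 bases before the RefSeq start in GRCm38.p6, the assembly behind mm10, printed 5′ to 3′ on the strand of the gene. Capitals mark matches on either strand to short words of factors active in intestinal epithelium: the HNF1 word GTTAAT, the CDX words TTTAT plus the variant TTTAC, the GATA factor words AGATAA plus the variant TGATAA, the HNF4 word AAAGTCC, the forkhead (FOXA) words TGTTTAC plus the variant TGTTTGC, with the word TATAAA of the TATA box, and with overlapping matches merged into 1 run.
Lct promoter, chr1:128328319-128328568, minus strand: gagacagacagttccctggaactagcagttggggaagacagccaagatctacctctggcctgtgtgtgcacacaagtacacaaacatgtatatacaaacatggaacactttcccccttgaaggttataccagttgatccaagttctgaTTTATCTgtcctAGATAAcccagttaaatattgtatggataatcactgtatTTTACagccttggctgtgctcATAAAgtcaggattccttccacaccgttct
Mgam promoter, chr6:40628581-40628830, plus strand: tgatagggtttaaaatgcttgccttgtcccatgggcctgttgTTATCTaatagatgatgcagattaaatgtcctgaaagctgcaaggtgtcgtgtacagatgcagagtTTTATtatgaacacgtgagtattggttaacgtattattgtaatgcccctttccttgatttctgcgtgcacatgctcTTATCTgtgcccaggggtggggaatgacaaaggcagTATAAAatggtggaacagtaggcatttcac
Sis promoter, chr3:72967864-72968113, minus strand: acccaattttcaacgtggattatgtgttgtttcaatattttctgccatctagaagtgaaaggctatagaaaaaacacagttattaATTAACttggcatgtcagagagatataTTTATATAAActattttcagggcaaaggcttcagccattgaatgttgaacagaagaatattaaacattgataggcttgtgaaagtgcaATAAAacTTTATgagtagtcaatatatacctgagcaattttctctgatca
Treh promoter, chr9:44672983-44673232, plus strand: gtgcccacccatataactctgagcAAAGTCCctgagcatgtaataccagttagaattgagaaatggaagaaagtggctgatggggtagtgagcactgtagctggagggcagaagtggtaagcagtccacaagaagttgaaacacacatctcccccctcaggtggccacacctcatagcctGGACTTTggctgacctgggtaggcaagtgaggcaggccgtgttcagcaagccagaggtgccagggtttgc

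AGATAA was found in the Lct window (2 matches) and in the Mgam window (2 matches) but not in those of Sis and Treh, and 9.99% of all 32851 promoter windows of this length held it. GTTAAT had 1 match, in the Sis window, where 6.43% of all windows held it. AAAGTCC had 2 matches in the Treh window, where 3.58% of all windows held it. TTTAT, a word held by 37.3% of all windows, was found in those of Lct (2), Sis (4) and Mgam (2). TTTAC was found once in the Lct window (28.3% of all windows), and TATAAA in those of Sis (2) and Mgam (1), where 12.4% of all windows held it. TATAAA overlapped TTTAT in the Sis and Mgam windows, and AGATAA overlapped TTTAT in the Lct window. The variant word TGATAA matched none of the 4 windows (7.94% of all windows). The forkhead words did not match them either, TGTTTAC being held by 3.17% of all windows, while the other, TGTTTGC, was held by 4.3%. The RefSeq start of Sis lay 997 bases upstream of the start of the gene in the annotation of the files. The other 3 RefSeq starts coincided with the annotated ones. These matches are descriptions of letters and not of bound sites.

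Total counts ranged from 12159237 to 25947276 per library. Levels are given as CPM (counts scaled to the library total and the TMM factor), which compare a gene between libraries, and levels between genes are given as TPM (counts per base of exon, scaled to the same sum in each library). The libraries held epithelial RNA throughout: 7 epithelial genes such as Epcam and Cdh1 summed to between 3262 and 13634 CPM. A pair of ileal libraries stood apart. In P6 ileum replicate 4, deviations from the group mean fell with the GC content of exons (Spearman's rho -0.76 across 12948 genes, which are not independent replicates), against 0.42 to 0.60 in the other 3 libraries of that group. P6 ileum replicate 4 also had the lowest sum of its group over the 7 epithelial genes (3262 CPM, against 5164 to 5492). The same held for 10 genes of enterocyte structure, such as Vil1 (villin), at 6255 CPM against 9487 to 9829. P36 ileum replicate 3 had the lowest sum of its group over these structure genes, at 5430 CPM, against 9817 to 23160 CPM in the other 3. The results are given with and without this pair where that changes a call. In bulk RNA, fewer enterocytes and less RNA per enterocyte cannot be told apart, and the time in EDTA could be longer at P36 than at P6.

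Lct was at its highest in the P6 jejunum and at its lowest in the P36 ileum. It stood at 5734, 5106, 5947 and 4596 CPM in replicates 1 to 4 of the P6 jejunum and at 508, 666, 367 and 1244 CPM in the P6 ileum. After weaning it stood at 1719, 1438, 1496 and 1512 CPM in the jejunum, and at 35.3, 22.9, 0.0817 and 6.17 CPM in the P36 ileum, where replicate 3 held only 2 counts. The groups followed the order P6 jejunum (5346 ± 614 CPM, SD, n = 4), P36 jejunum (1541 ± 123), P6 ileum (696 ± 385) and P36 ileum (16.1 ± 16.0), and the ranges of neighbours in that order did not overlap. Per length, Lct was the 39th to 55th highest of all genes in the P6 jejunum libraries and took 0.414% to 0.556% of their counts.

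Sis was near the floor at P6 and among the highest transcripts at P36. It stood at 9.42, 7.98, 9.08 and 5.98 CPM in the P6 jejunum and at 17.1, 7.87, 25.3 and 26.6 CPM in the P6 ileum. At P36 it stood at 4740, 5720, 4576 and 4420 CPM in the jejunum, with 2967, 1441, 771 and 891 CPM for the ileum. The order was P36 jejunum (4864 ± 586 CPM), P36 ileum (1518 ± 1009), P6 ileum (19.2 ± 8.65) and P6 jejunum (8.12 ± 1.55). The ages were far apart in both regions, while replicate 2 of the P6 ileum lay within the range of the P6 jejunum. Per length, Sis ranked 45th to 91st in the P36 jejunum and between 10096th and 10742nd in the P6 jejunum.

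Treh was near the floor in both regions at P6 and at 12.2 CPM or more in every P36 library. It stood at 2.36, 3.75, 2.68 and 3.49 CPM in the P6 jejunum and at 1.48, 0.860, 1.63 and 0.0490 CPM in the P6 ileum, where replicate 4 held 1 count. At P36 it stood at 554, 380, 284 and 344 CPM in the jejunum, with 221, 55.6, 12.2 and 59.7 CPM for the ileum. The order was P36 jejunum (391 ± 116 CPM), P36 ileum (87.2 ± 92.0), P6 jejunum (3.07 ± 0.659) and P6 ileum (1.00 ± 0.718), with no overlap between neighbours. The P36 ileum libraries spanned 18.1-fold, the widest relative range of Treh outside the P6 ileum, whose lowest library rests on that 1 count.

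Mgam was lowest in the P6 jejunum and already high in the P6 ileum. It stood at 198, 191, 226 and 193 CPM in the P6 jejunum and at 1151, 935, 1118 and 1426 CPM in the P6 ileum. At P36 it stood at 4103, 4611, 4000 and 3516 CPM in the jejunum, with 3195, 2071, 1273 and 2032 CPM for the ileum. The order was P36 jejunum (4057 ± 449 CPM), P36 ileum (2143 ± 792), P6 ileum (1158 ± 202) and P6 jejunum (202 ± 16.4). The ileal groups overlapped, since replicate 3 at P36 lay below replicate 4 at P6.

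**Figure D1:**
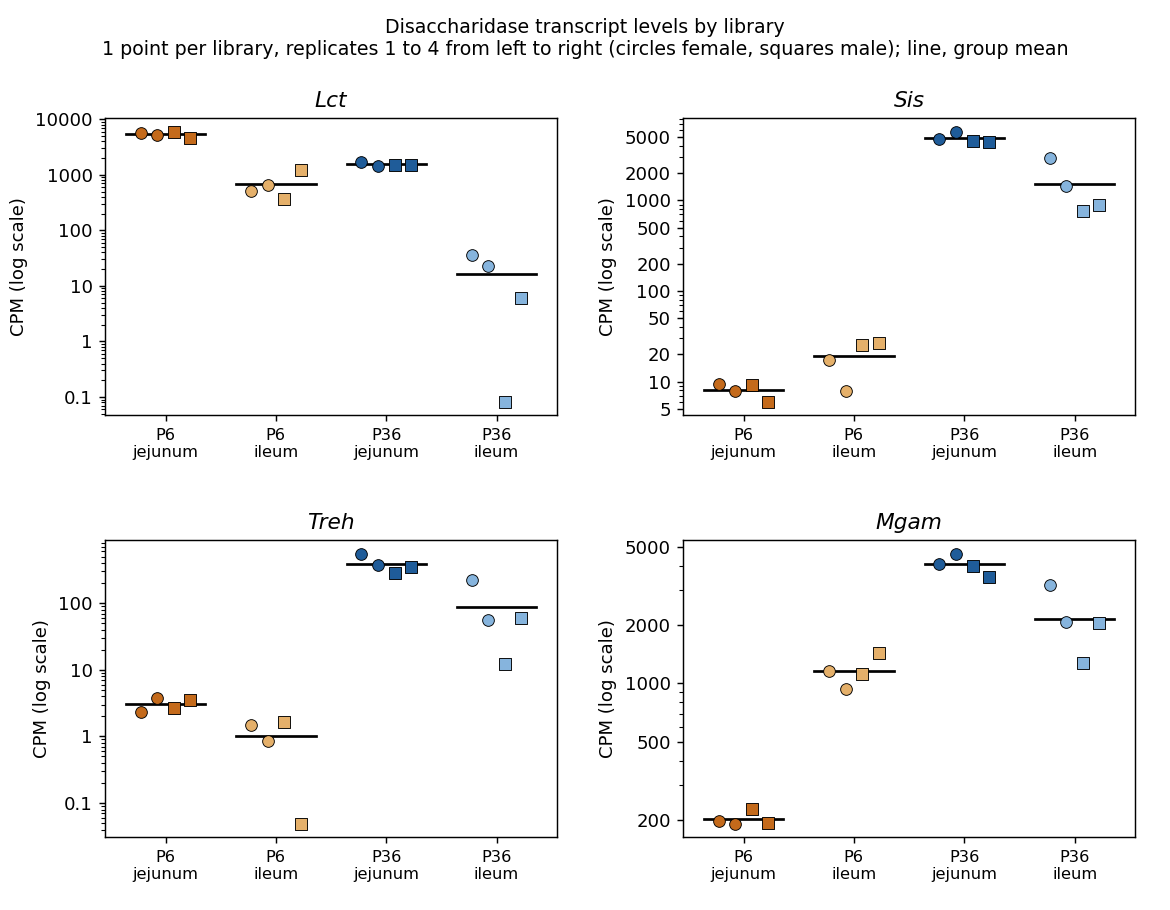
CPM on a log axis for Lct, Sis, Treh and Mgam in the 16 libraries, with 1 point per library (circles female, squares male) and a line at each group mean. Lct was highest in the P6 jejunum (4596 to 5947 CPM) and lowest in the P36 ileum (0.0817 to 35.3 CPM), Sis and Treh were high only at P36 among these groups, and Mgam was high in every group but the P6 jejunum (191 to 226 CPM).

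Per length, the mixture of the 4 transcripts differed in each group. Lct made up 96.2 ± 0.293% (SD, n = 4) of the 4 in the P6 jejunum and Mgam 3.47 ± 0.268%. In the P6 ileum, Mgam made up 62.1 ± 9.65% and Lct 36.6 ± 10.2%, with Sis at 1.13 ± 0.527%. The P36 jejunum held all 4, with Sis at 43.6 ± 2.36%, Mgam at 33.0 ± 1.48%, Lct at 13.3 ± 1.49% and Treh at 10.0 ± 2.53%. In the P36 ileum, Mgam made up 55.1 ± 8.14%, Sis 39.1 ± 6.22%, Treh 5.50 ± 3.30% and Lct 0.336 ± 0.285%. The sum of the 4 was 1801 ± 281 TPM in the P6 jejunum, 795 ± 279 in the P6 ileum, 3511 ± 391 in the P36 jejunum and 1217 ± 598 in its ileal counterpart. The ratio of Lct to Sis therefore went from 581 to 734 in the P6 jejunum libraries to 0.240 to 0.346 in those of the P36 jejunum, and it was 13.9 to 80.8 in the P6 ileum. These shares are descriptions and were not tested.

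**Figure D2:**
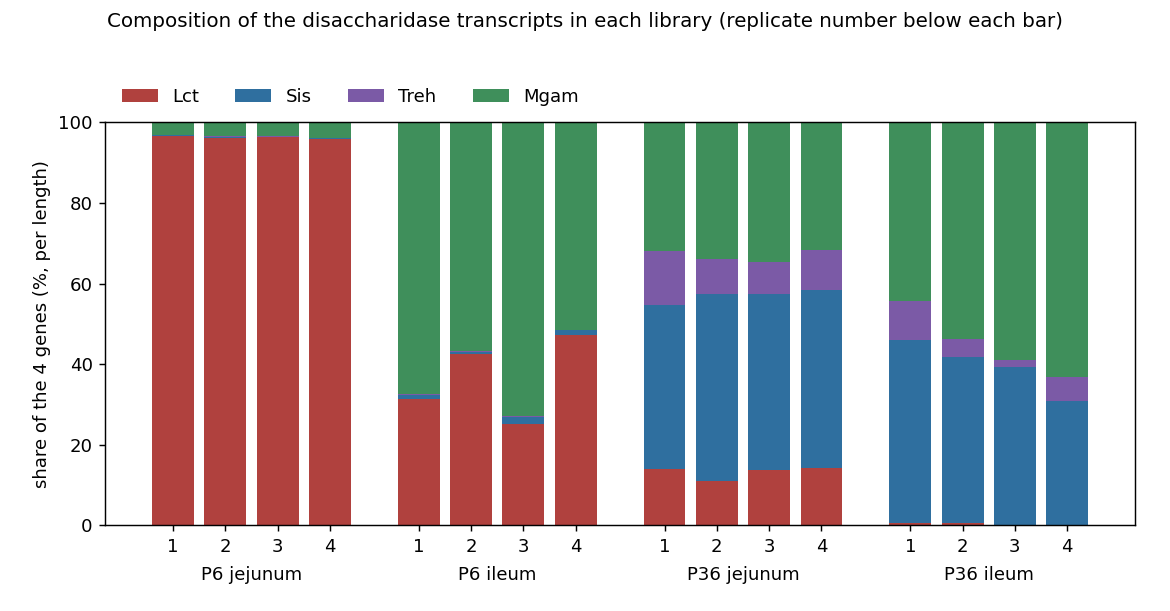
Share of each gene in the summed TPM of the 4 disaccharidases (y axis, percent), with 1 bar per library in the 4 groups. Lct filled 95.8% to 96.5% of every P6 jejunum bar, Mgam was the largest share in every P6 ileum bar (51.6% to 72.7%), and the Treh share was visible only in the P36 bars.

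The comparison of the regions asked how the jejunum and the ileum of 1 age differ. A gene was called where the adjusted p was below 0.05 and the absolute log2 fold change above 2 (edgeR quasi-likelihood test over all 16 libraries, Benjamini-Hochberg adjustment over 13429 genes), which 6.5% of tested genes met between the P6 regions and 3.6% between the P36 regions. Of the 4 members, 2 were called at P6, 1 higher in the jejunum (2.2% of genes) and 1 lower (4.3%). At P6, the jejunum held 7.67-fold more Lct (log2 2.94, SE 0.82, edgeR adjusted p = 0.0147) and 5.73-fold less Mgam (log2 -2.52, SE 0.24, adjusted p = 1.75e-06). Sis passed the adjusted p alone, which 25.9% of genes did, at a log2 fold change of -1.24 (SE 0.41, edgeR adjusted p = 0.0348). Its groups overlapped, the edgeR adjusted p was 0.0596 with the mouse as a block, and it was below 0.05 in only 2 of the 8 fits that each left out 1 of the libraries compared (range 0.00937 to 0.101). Treh was called in neither direction at P6 (log2 1.62, SE 0.75, edgeR adjusted p = 0.128), although its 4 jejunal libraries all lay above its 4 ileal ones, a separation that 30.1% of tested genes showed.

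The P6 mice fell into pairs by the prefix of the mouse name in the titles, replicates 1 and 3 against replicates 2 and 4, each pair holding a female and a male. The labels do not say what the prefix stands for. Lct stood at 367 to 508 CPM in the ileum of the first pair and at 666 to 1244 CPM in that of the second, and the summed Paneth cell genes stood at 467 to 809 CPM in all libraries of the first pair and at 25.3 to 69.3 CPM in those of the second. Not every gene of that sum separated the pairs. Lyz1 (lysozyme) stood at 7.82 to 20.3 CPM in the first pair and at 6.03 to 17.7 CPM in the second. With the P6 mice of 1 pair alone (2 libraries per P6 group), the regional log2 fold change of Lct at P6 was 3.74 in the first (edgeR adjusted p = 0.0642) and 2.33 in the second (edgeR adjusted p = 0.228), neither of them called. That of Mgam was -2.42 and -2.63, called in both pairs. Every call of a member with age was kept in both pairs.

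At P36 all 4 members were higher in the jejunum at an adjusted p below 0.05, which 16.1% of genes met in either direction, and 2 were called (2.06% of genes were called higher). Lct was 95.7-fold higher in the jejunum (log2 6.58, SE 0.97, edgeR adjusted p = 0.000229), the 20th largest absolute log2 fold change of the 13429 genes. That value was 7.31 without P36 ileum replicate 1 and 6.16 to 8.65 under the other settings tried. Treh was 4.48-fold higher (log2 2.16, SE 0.64, edgeR adjusted p = 0.0296), a call lost when P36 ileum replicate 2, 3 or 4 or P36 jejunum replicate 1, 2 or 4 was left out (6 of 8 libraries, log2 1.80 to 2.22), and the value was 3.20 without P36 ileum replicate 1. Without the pair of ileal libraries that stood apart it was 1.81 on the log2 scale, below the minimum, with an edgeR adjusted p of 0.0054. Sis was 3.21-fold higher (log2 1.68, SE 0.40, edgeR adjusted p = 0.00931), and it was called without P36 ileum replicate 1 (log2 2.23). Mgam was 1.89-fold higher (log2 0.92, SE 0.23, edgeR adjusted p = 0.0114). Relative to the 10 genes of enterocyte structure, the log2 fold change of Mgam was 0.34 (limma adjusted p = 0.353). That scaling also moved the median of all genes from -0.040 to -0.67.

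In the P36 ileum, the highest and the lowest library were shared among members and with enterocyte structure. Replicate 1 was the highest and replicate 3 the lowest for all 4 members. The summed level of the 10 structure genes was 23160, 9817, 5430 and 11493 CPM in replicates 1 to 4, with replicate 1 also highest and replicate 3 lowest. The sum of 5 Paneth cell genes, such as Lyz1 (lysozyme), was 5555, 5303, 14815 and 8067 CPM, and that of 7 crypt and cycling genes, such as Lgr5, was 856, 1315, 1653 and 796 CPM, both highest in replicate 3. The part of these cell types in the P36 ileal levels was not tested. Both female libraries lay above both male libraries for Lct, Sis and Mgam there, and with sex as a covariate the regional log2 fold changes at P36 kept their calls for all 4 members.

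The comparison of the ages asked how each region changed between suckling and the time after weaning, and 16.4% of tested genes were called in each region. In the jejunum, 3 members rose, where 7.86% of genes did. Sis rose 599-fold (log2 9.23, SE 0.56, edgeR adjusted p = 1.74e-09), the 61st largest absolute log2 fold change of all tested genes. Treh rose 127-fold (log2 6.99, SE 0.81, edgeR adjusted p = 2.44e-06) and Mgam 20.1-fold (log2 4.33, SE 0.26, edgeR adjusted p = 1.45e-09). Lct had a log2 fold change of -1.79 (SE 0.78), 3.47-fold lower at P36, with an edgeR adjusted p of 0.0665, so that neither the p nor the size of the change met the call rule. Its groups did not overlap, which 63.8% of tested genes showed in this comparison. The adjusted p was 2.99e-07 when only the 8 jejunal libraries were fitted (log2 -1.78) and 0.000503 without the pair of ileal libraries that stood apart (log2 -1.76), both below the minimum size for a call. The fit of all 16 libraries used 1 estimate of the spread per gene, and Lct spanned 0.0817 to 35.3 CPM in the P36 ileum.

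In the ileum, Lct fell, as did 10% of tested genes, and 2 members rose, as did 6.4%. Lct fell 43.2-fold (log2 -5.43, SE 0.92, edgeR adjusted p = 0.000123), a value that was -6.16 without P36 ileum replicate 1 and -7.66 to -4.56 under the other settings tried. Sis rose 79.0-fold (log2 6.30, SE 0.50, edgeR adjusted p = 3.53e-08) and Treh 87.1-fold (log2 6.45, SE 0.82, edgeR adjusted p = 6.47e-06). The rise of Treh was 5.41 on the log2 scale without P36 ileum replicate 1 and 5.29 to 7.54 under the other settings tried. Mgam had a log2 fold change of 0.89 (SE 0.23, edgeR adjusted p = 0.00369), below the minimum for a call. Its ileal groups overlapped, and relative to the structure genes the value was -0.0036 (limma adjusted p = 0.993), where the median of all genes was -0.83. The 4 comparisons share groups with each other, so that they are not independent.

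**Figure D3:**
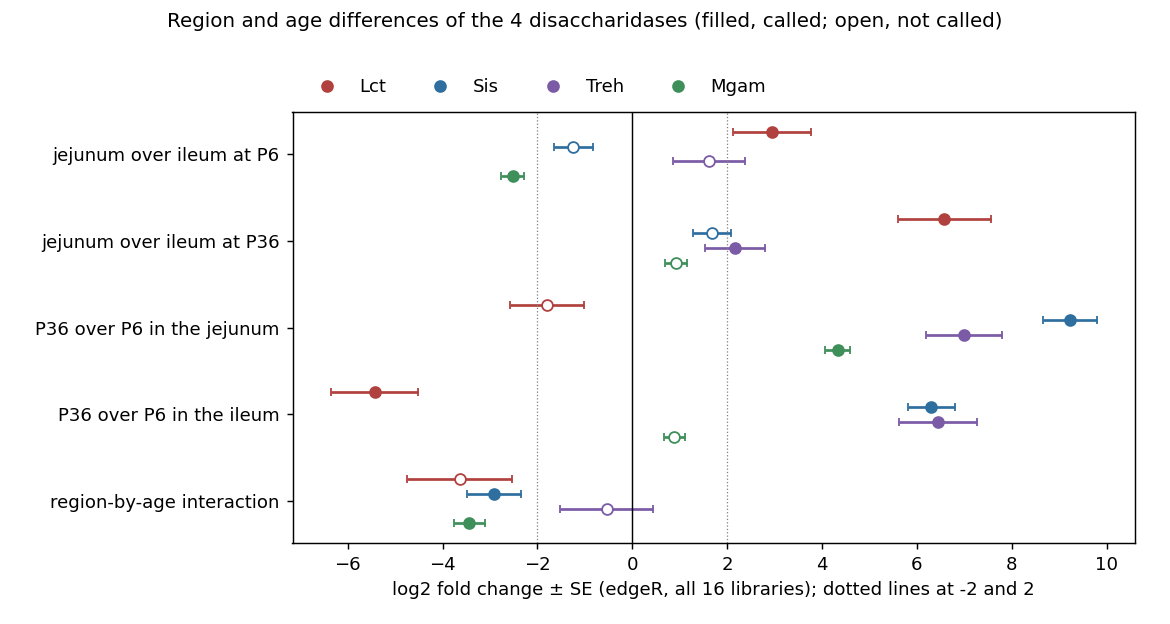
Log2 fold change ± SE of each gene in the 5 comparisons (x axis), with filled points for calls and open points for the others, and dotted lines at -2 and 2. Lct and Mgam lay on opposite sides of 0 between the P6 regions (2.94 and -2.52), and Sis had the largest value among the members, 9.23 with age in the jejunum.

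A regional difference that changed with age was tested for as the interaction, the jejunum-over-ileum log2 fold change at P6 minus that at P36, called at an adjusted p below 0.05 (8.69% of tested genes, 5.01% with a negative value). It was called for Mgam (-3.44, SE 0.33, edgeR adjusted p = 8.34e-06) and Sis (-2.92, SE 0.57, edgeR adjusted p = 0.00424). By their fold changes, both were lower in the jejunum than in the ileum at P6 and higher at P36. Of these regional differences only that of Mgam at P6 was itself called, and the P6 groups of Sis overlapped. With the P6 mice of 1 title prefix alone the interaction was called for Mgam in both pairs. For Sis it was called in the first pair (-2.87, edgeR adjusted p = 0.0199) but not the second (-3.002, edgeR adjusted p = 0.0552). For Lct it was -3.64 (SE 1.11, edgeR adjusted p = 0.0542), just outside the threshold. It was inside under 8 of 14 other settings and without P36 ileum replicate 1 (-4.37, edgeR adjusted p = 0.0223) or replicate 3 (-3.22, edgeR adjusted p = 0.00517). Without the pair of ileal libraries that stood apart it was -2.80 (edgeR adjusted p = 0.00299). For Treh it was -0.54 (SE 0.99, edgeR adjusted p = 0.775), an SE larger than the value itself, and it was -1.47 and 0.74 with the first and the second pair of P6 mice.

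Within mice, the jejunum was compared with the ileum of the same animal. Lct was higher in the jejunum of 8 of 8 mice, by 1.89 to 4.02 on the log2 CPM scale at P6 and by 5.60 to 13.0 at P36. The largest of these rests on 33337 against 2 counts, a ratio of 18323 with a 95% exact interval of 5072 to 151307 that covers counting error only. Mgam was lower in the jejunum of 4 of 4 mice at P6 (-2.89 to -2.29) and higher in 4 of 4 at P36 (0.36 to 1.65). Sis was lower in the jejunum of 3 of 4 mice at P6 (-2.13 to 0.021, the highest being near equality) and higher in 4 of 4 at P36 (0.68 to 2.57). Treh was higher in the jejunum of 8 of 8 mice (0.64 to 4.60 at P6 and 1.32 to 4.53 at P36). Its highest P6 value rests on 73 against 1 counts, a ratio of 71.3 (95% exact interval 12.4 to 2855).

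**Figure D4:**
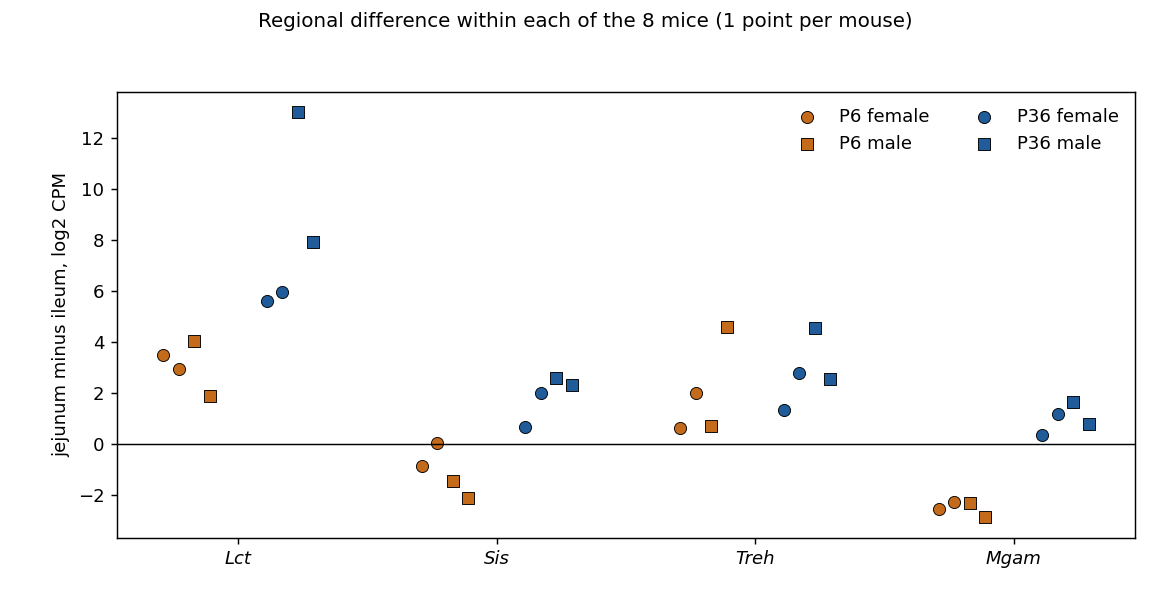
Jejunum minus ileum in log2 CPM (y axis) for each gene, with 1 point per mouse (P6 orange, P36 blue, circles female, squares male) and a line at 0. All 4 Mgam points lay below 0 at P6 (-2.89 to -2.29) and above 0 at P36 (0.36 to 1.65), and all 8 Lct points lay above 0.

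The transporters that take up the products of these enzymes were compared in the same fit. Of 8 sugar uptake genes, 3 were called higher and 1 lower in the jejunum at P6 (median log2 fold change 1.12, against -0.046 over all tested genes), and 5 were called at P36, all of them higher (median 3.05, against -0.040). With age, 5 were called in the jejunum, all higher (median 2.22, against -0.011), and 4 higher and 1 lower in the ileum (median 2.10, against -0.032). Of all tested genes, 6.5% and 3.6% were called between the P6 and the P36 regions, and 16.4% with age in each region. Slc5a1 rose with age in the jejunum from 888 ± 82.7 to 3738 ± 318 CPM (log2 2.07, edgeR adjusted p = 5.43e-05), and in the ileum its log2 fold change of 1.63 was below the minimum. Slc2a5 rose with age in the jejunum, from 46.7 ± 11.8 to 240 ± 66.3 CPM, and in the ileum, from 1.96 ± 0.133 to 31.8 ± 19.2 CPM (log2 2.36 and 4.02).

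Slc2a2 resembled Lct in its ileal values. Its jejunal level was 325 ± 19.1 CPM at P6 and 324 ± 32.0 at P36, and its ileal level was 42.7 ± 12.6 CPM at P6 and 2.37 ± 1.73 at P36. Its ileal fall was called (log2 -4.19, edgeR adjusted p = 5.41e-06), and so was its interaction (-4.19, edgeR adjusted p = 0.0009). Slc5a4a and Slc5a4b, close relatives of Slc5a1 that may share reads with each other, rose with age by 9.18 and 6.07 (jejunum) and by 5.84 and 2.57 (ileum) on the log2 scale. The ileal rise of Slc5a4b was not called with the mouse as a block (limma-voom, log2 1.39, adjusted p = 0.175) or without P36 ileum replicate 1 (log2 1.00, edgeR adjusted p = 0.0611). Slc2a7 was higher in the jejunum at P6 (log2 3.37) and at P36 (3.93) and rose with age in both regions (4.28 and 3.72). Without P36 ileum replicate 1, its P36 regional value was 4.74 and its ileal rise 2.92, and the ileal rise of Slc5a4a was 4.81. The P6 regional value of Slc2a7 was 2.09 and not called with the first pair of P6 mice (edgeR adjusted p = 0.228). Slc2a1 (GLUT1) was the gene called lower in the P6 jejunum (log2 -2.14), with overlapping groups and a log2 fold change of -1.94 with the mouse as a block, below the minimum.

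Of 12 genes that handle fructose and galactose inside the cell, 1 was called between the regions at P6 (median 0.45) and 1 at P36 (median 0.56), both higher in the jejunum. With age, 1 was called higher and 1 lower in the jejunum (median -0.27), and 2 higher and 2 lower in the ileum (median -0.80). The shares over all tested genes were 6.5% and 3.6% between the P6 and the P36 regions, and 16.4% with age in each region. Khk (ketohexokinase, which begins fructose breakdown) was the regional call at both ages (log2 2.13 and 2.05) and rose with age in both regions (2.44 and 2.52). Its regional calls were lost under scaling by library totals and without the pair of ileal libraries that stood apart. Galk1 (galactokinase, which begins galactose breakdown) fell with age by 3.65 (jejunum) and 3.62 (ileum) on the log2 scale. Its P6 ileum replicate 4 stood at 7.20 CPM, against 197 to 239 CPM in the other 3 libraries. In the ileum, Glyctk (glycerate kinase) fell (log2 -2.10), with overlapping groups and a call lost without P36 ileum replicates 2 or 3 or P6 ileum replicate 3, each left out alone. Galm (galactose mutarotase) had a called interaction (-1.33, edgeR adjusted p = 0.000878).

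Of 9 glycosidases related to the members but acting elsewhere, 7 were tested, and 4 were called with age in each region, all of them lower at P36 (medians -2.36 in the jejunum and -2.45 in the ileum). Over all tested genes, 16.4% were called with age in each region in either direction, with 10% called lower in the ileum. Between the P36 regions 3.6% were called. Gaa, the acid alpha-glucosidase of lysosomes, fell by 3.33 (jejunum) and 4.04 (ileum) on the log2 scale. Glb1, the lysosomal beta-galactosidase, fell by 3.83 and 3.88. Klb (beta-Klotho, a glycosidase-like co-receptor) fell by 5.36 and 3.77 and was the 1 regional call, lower in the P36 jejunum (log2 -2.08), from levels of at most 0.799 CPM on average at P36. The regional call of Klb was lost under 5 of 21 alternatives, including that without the pair of ileal libraries that stood apart. Without P36 jejunum replicate 4, the jejunal change of Klb with age was -6.29 and its regional value -3.005. The median between the regions was -0.13 at P6, where Glb1 passed the adjusted p alone (log2 -0.57, edgeR adjusted p = 0.0364), and -0.036 at P36.

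Of 15 other brush border hydrolases, 13 were tested. With age, 7 were called higher and 2 lower in the jejunum (median 2.14), and 4 higher and 2 lower in the ileum (median 0.85). Over all tested genes, 16.4% were called with age in each region, and 6.5% and 3.6% between the P6 and the P36 regions. Ggt1 (gamma-glutamyl transferase) rose by 5.52 (jejunum) and 5.85 (ileum) on the log2 scale, and Anpep (aminopeptidase N) by 2.66 and 3.74. Mme (neprilysin) rose by 2.75 and 5.14 and was also higher in the jejunum at P6 (log2 5.63) and P36 (3.24). Xpnpep2 (aminopeptidase P) rose by 2.90 and 2.51, the latter with overlapping groups, a value of 3.49 without P6 ileum replicate 3 and no call without P36 ileum replicate 1. Alpi, the intestinal alkaline phosphatase, fell by 2.27 and 3.30, from 3486 ± 443 to 723 ± 89.1 CPM in the jejunum. The regional calls were Mme at P6 (median of the list 0.45), and 3 higher and 1 lower at P36 (median 0.94), where Akp3 (a second alkaline phosphatase), Mme and Ace (angiotensin-converting enzyme) were higher by 3.19, 3.24 and 2.93 and Mep1a (meprin alpha) was lower (-2.47). Without P36 ileum replicate 1, the P36 values of Mme and Ace were 4.50 and 3.81, and the ileal changes of Mme, Alpi and Ace with age were 3.89, -4.10 and -3.52. Ace fell with age in the ileum (log2 -2.64) and Mep1a in the jejunum, the latter just past the minimum for a call and lost under 10 of 21 alternatives.

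Among 20 transcription factors of intestinal epithelium, 19 were tested, and Gata4 was the single regional call at P6 and at P36 (medians over the list 0.041 and -0.17). These comparisons called 6.5% and 3.6% of all tested genes. Gata4, a factor known to specify the proximal small intestine, stood at 155 to 164 CPM in the jejunum at P6 and 174 to 193 CPM at P36. It stood at 8.98, 18.4, 3.25 and 34.7 CPM in the P6 ileum and at 31.6, 5.56, 0.735 and 2.29 CPM in the P36 ileum. The jejunum exceeded the ileum by 3.28 (SE 0.83, edgeR adjusted p = 0.00844) at P6 and by 4.17 (SE 0.87, adjusted p = 0.00372) at P36, and DESeq2 gave no adjusted p for it. Without P6 ileum replicate 4 the former was 3.95, without P36 ileum replicate 1 the latter was 6.01, and with the second pair of P6 mice the former was 2.60 and not called (edgeR adjusted p = 0.144). The order of the 4 libraries was the same for Gata4 as for Lct within the P6 ileum (replicates 4, 2, 1, 3) and within the P36 ileum (1, 2, 4, 3), an observation made after the values were seen. The P36 order was also that of Sis and Mgam, and the orders of Lct and Gata4 differed in both jejunal groups. In the P6 ileum, replicate 4, a library that stood apart by GC content, was also the highest for Sis, Mgam and Slc2a2.

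With age, 1 factor was called higher and 2 lower in the jejunum (median 0.094), and 2 were called in the ileum, both lower (median 0.30). Each of these comparisons called 16.4% of all tested genes. Prdm1 (Blimp-1, a repressor known from the suckling epithelium) fell by 4.98 (jejunum) and 5.72 (ileum) on the log2 scale (edgeR adjusted p = 6.37e-09 and 2.26e-09), with 181 to 390 CPM in all P6 libraries and 2.90 to 10.3 CPM in all P36 libraries. Hnf4g, a nuclear receptor of enterocytes, rose in the jejunum (log2 2.37, edgeR adjusted p = 1.08e-06) and had a called interaction (-1.62, edgeR adjusted p = 0.00731). Cdx2, a factor that binds the TTTAT word and is known to act on Sis, was called in none of the 5 comparisons, with log2 fold changes of -0.049 and -0.27 between regions and 0.073 and 0.30 with age.

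**Figure D5:**
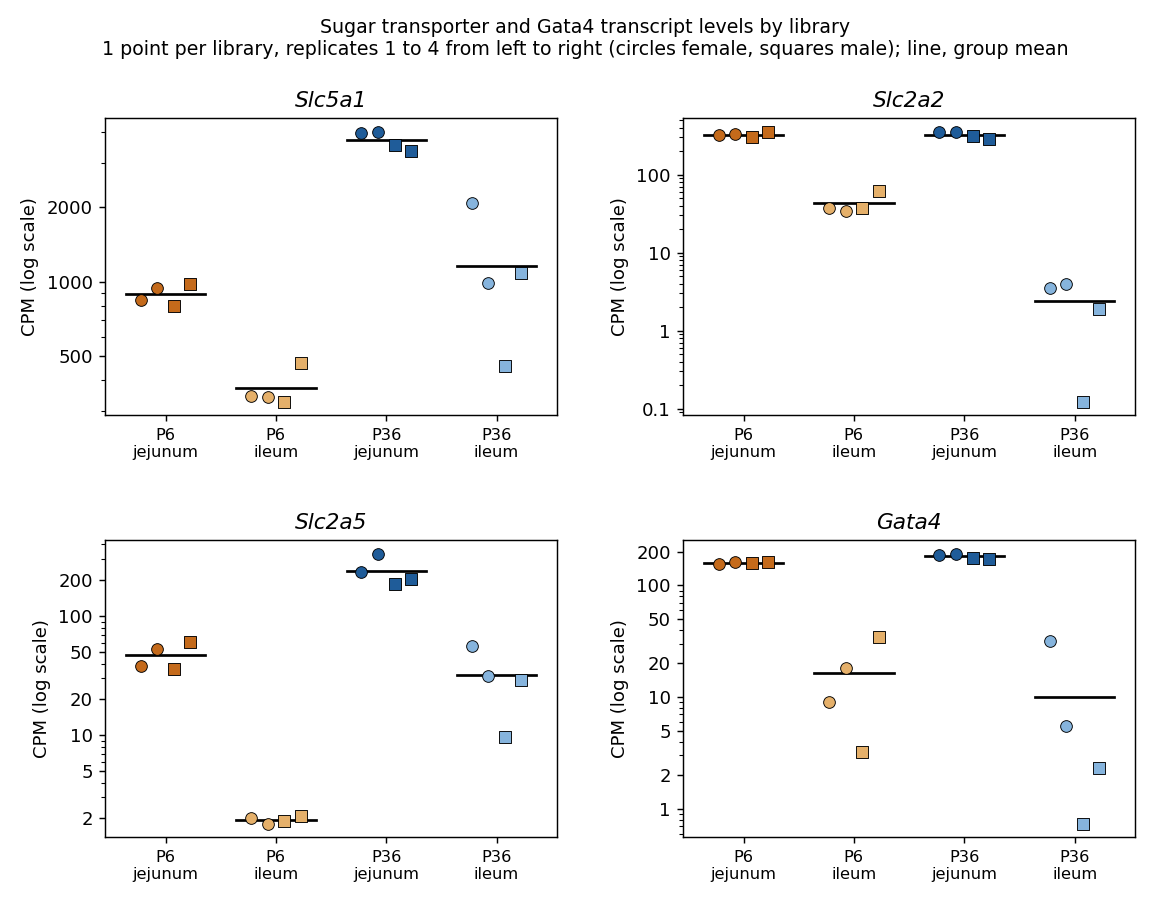
CPM on a log axis for Slc5a1, Slc2a2, Slc2a5 and Gata4 in the 16 libraries, with 1 point per library (circles female, squares male) and a line at each group mean. Slc2a2 was level between the jejunal groups (284.5 to 353 CPM over both) and lowest in the P36 ileum (0.122 to 3.91 CPM), and Gata4 was low in both ileal groups (0.735 to 34.7 CPM).

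The genes most like each member were found by Pearson's r of log2 CPM over the 16 libraries, which fall into 4 groups and share depth and scaling, so that r carries no p. For Lct these were Creb3l3 (0.974), Ace (0.971) and Slc2a2 (0.968). For Sis they were Slc41a2 (0.991), Trim36 (0.989) and Slc35g1 (0.988), and for Treh they were Trak1 (0.994), Stap2 (0.989) and Slc2a9 (0.986). For Mgam they were Myo9a (0.981), Rdh11 (0.968) and Bcl2l15 (0.968). Bcl2l15 stood at 1.20 ± 0.292 CPM in the P6 jejunum, 40.6 ± 10.7 in the P6 ileum, then 229 ± 25.2 in the jejunum at P36 and 215 ± 42.3 in the ileum at P36. Creb3l3 stood at 960 ± 46.3, 378 ± 109, 408 ± 70.7 and 39.5 ± 48.6 CPM in the same order of groups. Among the members, r was 0.910 between Sis and Treh, 0.879 between Sis and Mgam and 0.685 between Treh and Mgam. Lct had r of -0.396, -0.180 and -0.364 with Sis, Treh and Mgam.

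The marker lists of other cell types varied beside these values. Goblet cell genes (6) summed to 1697 to 4101 CPM at P6 and 7565 to 17948 CPM at P36, Paneth cell genes (5) to 25.3 to 809 and 4277 to 14815 CPM, and enteroendocrine genes (5) to between 62.7 and 177 CPM in all libraries. Crypt and cycling genes (7) summed to 321 to 707 CPM at P6 and 796 to 1653 CPM at P36. Of these 7, 5 had a positive log2 fold change with age in each region. Lgr5 went the other way in the jejunum, from 15.2 to 22.9 CPM at P6 to 3.25 to 5.79 CPM at P36. It was also lower with age in the ileum, at 23.8 to 44.2 CPM at P6 and 12.0 to 29.1 CPM at P36, where the ranges overlapped. Smooth muscle genes (5) summed to 188 CPM in P6 ileum replicate 2 and to at most 2.99 CPM elsewhere. Fibroblast genes (5) reached 239 CPM in that library against 5.26 to 61.3 CPM elsewhere, and endothelial genes (4) reached 34.8 CPM against at most 5.98 CPM. That library had the lowest Sis and Mgam of its group. Immune genes (6) summed to 3.31 to 14.7 CPM at P6 and 5.53 to 117 CPM at P36. Erythroid genes (5) summed to at most 1.32 CPM, with at least 4 of them at 0 in every library of all groups. The part of these cells in the differences above was not tested, and leaving out P6 ileum replicate 2 ended no call of a member.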

How the data were processed

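Jejunal and ileal epithelium released with EDTA was sequenced from 8 mice (16 libraries). The authors made stranded mRNA libraries with a Kapa kit, sequenced them on a NovaSeq, trimmed reads with Trimmomatic 0.38 and aligned them to mm10 with STAR. Per the file headers, featureCounts 1.6.3 counted read pairs on exons with the reverse strand setting, and the deposited values are raw counts of 24421 genes per library, without normalization. Samples were grouped by the age and region in their labels. Total counts ranged from 12159237 to 25947276, and depth limits the precision of genes with few counts.

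Genes were kept by filterByExpr on the 4 groups (13429 genes), scaled by TMM and tested in edgeR 4.0.16 (R 4.3.3) by the quasi-likelihood method in 1 fit of 4 group means, with Benjamini-Hochberg adjustment over all tested genes. A call needed an adjusted p below 0.05 with an absolute log2 fold change larger than 2, while the interaction needed only the former. The SE is the log2 fold change divided by the square root of F, and a prior count of 2 entered log2 CPM. TPM used the exon lengths of the files. Mouse numbers in the titles pair the regions: deviations from the group means had Pearson's r of 0.157 to 0.391 between the regions of a mouse at P6 and 0.240 to 0.347 at P36 (means of -0.106 and -0.101 between mice). No pair of replicates agreed within sampling noise (chi-square per gene 13.2 to 272). The procedure was tested on simulated counts.

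The alternatives were DESeq2 1.42.0, median-of-ratios scaling, library totals, scaling to the enterocyte structure list, filters on low counts, sex as a covariate, only the 8 libraries of a comparison, the mouse as a block (edgeR, or voom of limma 3.58.1 with a consensus correlation of 0.191), and each library left out in turn. Scaling to the structure list was fitted to log2 CPM in limma. A correction for exon GC content (loess, span 0.3), alone and with the block, leaving out both ileal libraries that stand apart and keeping the P6 mice of 1 title prefix were added after the data were seen. Named genes are the 4 members, the up to 4 largest called fold changes per list and comparison, Slc5a1, Slc2a2, Slc2a5, the 3 genes most like each member and cell type markers, with Cdx2, Glb1 at P6 and the library order of Gata4 picked after their values were seen. The members and lists were chosen with earlier results of these data known. Dab2 knockout libraries and single-cell data were not analysed here, and the values of some genes of the lists are not reported here.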

Additional observations from a re-analysis of the deposited data

Results flagged for a closer look

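The regional difference of 2 members differed between the ages by the interaction test. For Sis the jejunum-over-ileum log2 fold change at P6 less that at P36 was -2.92 (edgeR adjusted p = 0.00424), and the sign held in 3 of 4 mice at P6 and 4 of 4 at P36. For Mgam it was -3.44 (edgeR adjusted p = 8.34e-06), with a lower jejunum in 4 of 4 mice at P6 and a higher one in 4 of 4 at P36. Among the 16 sets of 4 libraries formed by the members and groups, no library was far enough from the other 3 to pass Dixon's test at the 95% level, which chance passes in about 1 of 20 sets.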

How the results depend on the processing

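Of 464 alternative values of the 20 member comparisons, 439 kept their direction and their side of the threshold. The fold change of Mgam with age in the ileum reversed, to -0.0036, relative to the enterocyte structure list, a setting that moved the median of all genes to -0.83. Lct with age in the jejunum was called under that setting (-2.40, with the median of all genes at -0.62). The Lct interaction passed the threshold with DESeq2 (-3.62), library totals (-3.84), sex as a covariate (-3.91), the voom replicate block (-5.56), the structure list (-5.26), the GC correction (-3.65), the GC correction with the replicate block (-4.30) and without both ileal libraries that stand apart (-2.80), and it had an edgeR adjusted p of 0.0705 with the fixed replicate block. Treh between the P36 regions was not called with only the 8 libraries compared (2.17) or without both ileal libraries that stand apart (1.81). The mouse as a block changed no other call of a member by the call rule, and the adjusted p of Treh between the P6 regions was 0.0464 in the edgeR fit with the block and the GC correction. Leaving out 1 library at a time gave -4.37 to -3.20 for the Lct interaction, 1.46 to 2.23 for Sis between the P36 regions and 1.80 to 3.20 for Treh between the P36 regions. With the P6 mice of the first or the second title prefix alone, Lct between the P6 regions was not called (3.74 and 2.33), and with the second alone the Sis interaction missed the threshold (-3.002) and the Treh interaction, not called in any setting, reversed (0.74). With 1 prefix alone, calls of Slc2a7, Slc2a1, Khk, Gata4, Slc5a4b, Glyctk, Mme, Mep1a and Xpnpep2 and interactions of Hnf4g, Slc5a4b and Akp3 were lost. Without the division by length, the share of Treh was 0.0566% in the P6 jejunum, 1.90% in the P36 ileum and 3.59% in the P36 jejunum, and that of Mgam was 37.3% in the latter. By Spearman's rho none of the 12 genes most like a member remained among the 3 most like it. Calls with age in the jejunum of Slc5a1, Slc2a5, Khk, Hnf4g, Enpep and Dpp4 were lost relative to the structure list. Genes at 1 to 3 counts in a library, such as Treh in P6 ileum replicate 4 and Lct in P36 ileum replicate 3, have imprecise levels there. These were not the shallowest libraries of their groups. Their total counts were 18681803 and 21776158, against group minima of 16629589 and 12159237.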

Other observations

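Akp3 had a called interaction of -1.81 (edgeR adjusted p = 0.0399), with means of 0.522, 0.198, 2.33 and 0.251 CPM in the P6 jejunum, P6 ileum, P36 jejunum and P36 ileum, and the edgeR adjusted p was 0.0823 with the mouse as a block. This call was lost under 19 of 29 alternatives, of which 12 left out 1 library. Slc5a4b had a called interaction of -3.50 (edgeR adjusted p = 0.034), which 12 of 30 alternatives lost. Enpep (aminopeptidase A) and Dpp4 (dipeptidyl peptidase 4) rose with age in the jejunum by 2.27 and 2.21 on the log2 scale, and their ileal values, 0.85 and 1.26, were below the minimum for a call.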
